A study of Homo sapiens with 12 samples.

Results

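The genes described here are 6 metallothionein genes (MT1E, MT1F, MT1G, MT1M, MT1X and MT2A), the zinc-sensing transcription factor gene MTF1 and the zinc exporter gene SLC30A1. They were chosen by name, with earlier results of these data known, and all 8 were found among the 20263 genes of the deposited count table. RNA-seq had been performed on A375 cells, an established human melanoma line with the genotype WT in all libraries. The 4 groups of 3 libraries were Ctrl, DBIC, Hemin and DBIC+Hemin. DBIC is the label of a benzimidazole carboxylate ester that the study's text writes as DdBIC, and hemin is a soluble form of heme. Doses and durations of the RNA-seq treatments, and whether the 3 libraries of a group came from separate cultures, are not given in the sources used here, so p-values measure only the spread between these libraries. The paper states in general that its data come from 3 independent experiments unless specified otherwise, without saying so of these libraries. The series asked how DBIC acts on cells in which hemin blocks the pyroptosis that DBIC induces, pyroptosis being a lytic form of cell death.

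Metallothioneins are small cysteine-rich proteins that bind zinc and copper and buffer them in the cytosol. Free zinc activates the zinc finger protein MTF1, which binds metal response elements, short DNA motifs in the promoters of metallothionein genes and of SLC30A1, and raises their transcription. SLC30A1 (ZnT1) exports zinc across the plasma membrane, so the same factor induces both storage and export of the metal. The metallothionein genes lie side by side in a cluster on chromosome 16, and their transcripts are widely used as a readout of labile zinc, although other metals and oxidants also induce them.

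Library totals were 37951275 to 44358912 counts. Levels are given as CPM, gene counts brought to a common library size with edgeR's TMM factors, and a count of 0 in a library allows a level of up to 0.0684 to 0.0784 CPM (3 counts, counting error only). In bulk RNA, fewer cells of a type and less RNA per cell cannot be told apart. HMOX1, the heme-degrading enzyme induced by heme, was at 7.99 to 9.19 CPM in Ctrl, 7.26 to 8.73 in DBIC, 61.9 to 65.5 in Hemin and 146 to 188 in DBIC+Hemin, so the hemin labels and HMOX1 went together. Of 9 markers of the melanocyte lineage, the transcription factor SOX10 was at a median of 515 TPM (a level per transcript length), whereas TYR, TYRP1, DCT and MLANA, which serve pigment synthesis or are pigment cell antigens, stayed under 1 TPM in every library. Of 5 markers of dedifferentiated melanoma, AXL and NGFR were at medians of 251 and 88.7 TPM, ZEB1 at 19.8, EGFR at 5.55 and SOX9 at 1.08. Among markers of other cells, PTPRC (immune) and KRT1 (keratinocyte) were at 0 in every library, the monocyte marker CD14 was at 0.434 to 1.68 TPM, KRT10 at a median of 64.2, KRT14 at 3.30 to 4.87 and the fibroblast marker LUM at 4.11 to 7.03. The summed level of the 9 melanocyte markers was 563 to 587 TPM in Ctrl, 636 to 670 with DBIC, 499 to 509 with Hemin and 498 to 563 with DBIC+Hemin, highest with DBIC and lowest in the groups with hemin, as described below for MT2A, although DBIC+Hemin reached the Ctrl range. Most of that sum is SOX10, at a mean of 525 TPM in Ctrl, so it is mainly the level of 1 gene. The sum of the 5 dedifferentiation markers was 353 to 364 TPM in Ctrl, 315 to 331 with DBIC, 363 to 382 with Hemin and 359 to 370 with DBIC+Hemin. The 5 fibroblast markers summed to 9.43 to 10.3 TPM in Ctrl, 6.78 to 6.87 with DBIC, 9.44 to 11.3 with Hemin and 8.44 to 8.90 with DBIC+Hemin, and the 4 keratinocyte markers to 61.5 to 66.3, 69.7 to 83.8, 69.3 to 75.5 and 57.2 to 68.3 TPM. The 3 endothelial markers, each under 1 TPM in every library, summed to 0.337 to 0.503, 0.820 to 1.01, 0.360 to 0.429 and 0.558 to 1.36 TPM in the same order of groups, and the 4 immune markers to 0.434 to 1.15, 1.02 to 1.68, 0.649 to 0.933 and 0.731 to 1.27 TPM. The part of these shifts in the results below was not tested.

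MT2A, MT1X, MTF1 and SLC30A1 had counts in every library and entered the tests. MT1E, MT1F, MT1G and MT1M were listed at 0 counts in all 12 libraries, so the levels below are those of 4 genes. In brief, DBIC alone raised all 4 of them by 1.70- to 2.03-fold. Hemin alone lowered MT2A, MT1X and SLC30A1 by 1.71- to 2.21-fold and left MTF1 within the spread. With both agents, none of the 4 was called against hemin alone, although MTF1 was slightly higher in all 3 libraries.

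The sequences ahead of the start sites are shown because MTF1 acts through them. Upstream sequences of 250 bases were taken from RefSeq on GRCh38.p14, in which MT2A, MT1X, MTF1 and SLC30A1 were matched, and MT1E, MT1F, MT1G and MT1M were not. They were searched on both strands for the metal response element core, TGCACNC or TGCGCNC, where N is any base. The core occurs at least once in 24.8% of the 34943 promoters in the table. The MT2A window, chr16:56608334-56608583, plus strand, held 7 matches, a number reached or exceeded in 0.0315% of promoters. A longer annotated GENCODE transcript of MT2A covers this window with its first exon, so only 4 of its 7 matches are printed, each with 7 flanking bases on either side, read along the strand that carries the motif and with the match in capitals.
MT2A, 168 to 162 bases before the start, other strand, chr16:56608409-56608429: ccggctcTGCACACgggccgc
MT2A, 139 to 133 bases before the start, gene strand, chr16:56608438-56608458: ggcccagTGCGCGCggccggg
MT2A, 88 to 82 bases before the start, other strand, chr16:56608489-56608509: cgctgccTGCACACgccccgc
MT2A, 54 to 48 bases before the start, gene strand, chr16:56608523-56608543: gggctttTGCACTCgtcccgg

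The MT1X window, chr16:56682220-56682469, plus strand, held 4 matches, a number reached or exceeded in 0.369% of promoters. The stretch before the longest annotated MT1X transcript, 204 bases at chr16:56682220-56682423, carries all 4 and is printed along the gene strand to show how closely they sit. The SLC30A1 window, chr1:211579162-211579411, minus strand, held 1 match and is printed whole. The deposited coordinates place the start of SLC30A1 further downstream, at chr1:211578742. The bases between that start and the window were not searched, so matches there are not known. Capitals mark the matches, and GGGTGCA and GAGTGCA are matches on the other strand.
MT1X: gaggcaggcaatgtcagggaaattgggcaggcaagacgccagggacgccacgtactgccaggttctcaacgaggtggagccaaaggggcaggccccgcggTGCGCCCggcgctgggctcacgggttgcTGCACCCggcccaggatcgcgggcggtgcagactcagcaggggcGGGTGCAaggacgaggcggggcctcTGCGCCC
SLC30A1: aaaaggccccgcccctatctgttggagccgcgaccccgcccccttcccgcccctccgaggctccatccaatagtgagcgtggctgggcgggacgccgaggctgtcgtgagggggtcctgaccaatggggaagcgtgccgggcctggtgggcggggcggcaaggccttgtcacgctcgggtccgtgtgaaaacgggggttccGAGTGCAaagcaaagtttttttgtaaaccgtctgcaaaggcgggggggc

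The MTF1 window, chr1:37859593-37859842, minus strand, held no match to this core. The core of the antioxidant response element, TGACNNNGC, which NRF2 binds, was found once each in the windows of MT2A, MT1X and SLC30A1 and not in that of MTF1, against 10.9% of all promoters with at least 1. It overlapped no metal response element core in these windows. These matches are descriptions of letters and were not tested for binding.

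**Figure D1:**
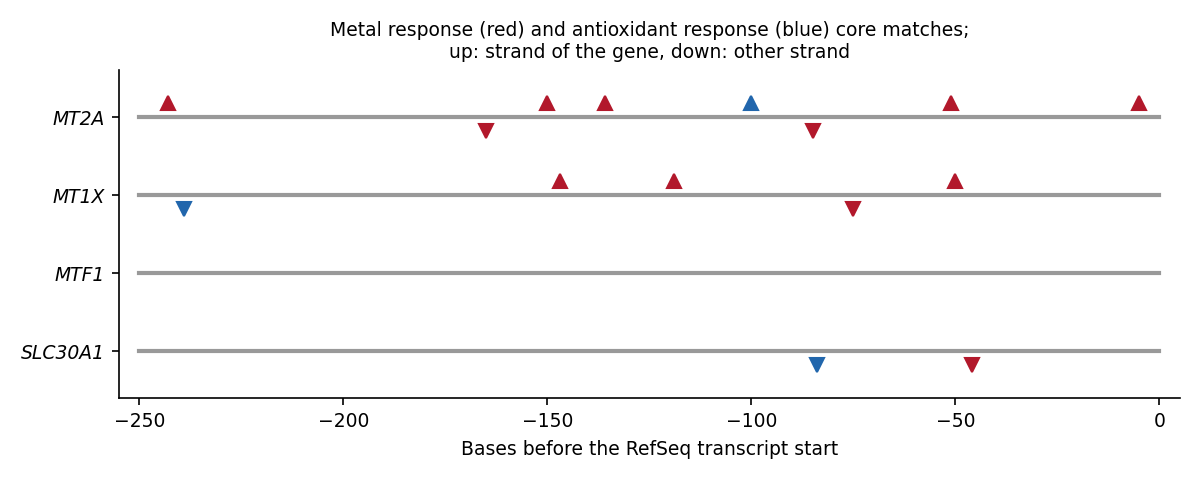
Positions of the matches in the 250 bases before the RefSeq transcript start of each gene. The x axis is in bases before the start, red marks the metal response element core and blue the antioxidant response element core, and triangles point up for the gene strand and down for the other strand. MT2A carries 7 red marks, MT1X 4, SLC30A1 1 and MTF1 none.

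MT2A, the metallothionein gene with the highest level here, lies at chr16:56608199-56609497 on the plus strand (ENSG00000125148; coordinates of the members are the deposited table's, on hg38). Its level was 309, 320 and 306 CPM in the 3 Ctrl libraries, 634, 578 and 587 with DBIC, 182, 184 and 181 with Hemin, and 175, 179 and 190 with DBIC+Hemin. The DBIC libraries stood above all others, the Ctrl libraries came next, and the 2 groups with hemin overlapped each other below Ctrl. Group means were 312 ± 7.27, 600 ± 30.2, 182 ± 1.30 and 181 ± 7.80 CPM in that order (SD, n = 3). In level per length, MT2A ranked 152 among the 20263 genes in Ctrl, 81 with DBIC, 284 with Hemin and 302 with DBIC+Hemin.

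MT1X, at chr16:56682424-56684196 on the plus strand (ENSG00000187193), followed the same order at a far lower level. It was at 7.59, 7.83 and 8.29 CPM in Ctrl, 17.0, 14.3 and 16.9 with DBIC, 4.98, 4.08 and 4.26 with Hemin, and 4.79, 4.62 and 4.95 with DBIC+Hemin. Again the DBIC libraries were highest and the 2 groups with hemin overlapped below Ctrl. These levels rest on 163 to 714 reads per library, against 6935 to 24825 for MT2A, so the errors of MT1X are wider. Per length, MT2A exceeded MT1X by 20.7- to 26.3-fold (ratio of TPM in a library), and the ranges of this ratio overlapped among all 4 groups: 21.6 to 23.9 in Ctrl, 20.7 to 24.1 with DBIC, 21.3 to 26.3 with Hemin and 21.2 to 22.6 with DBIC+Hemin.

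SLC30A1, at chr1:211571568-211578742 on the minus strand (ENSG00000170385), was at 33.2, 29.9 and 32.6 CPM in Ctrl and 65.3, 58.3 and 67.4 with DBIC. It was at 12.9, 16.2 and 14.1 CPM with Hemin and 15.7, 15.4 and 16.1 with DBIC+Hemin. The exporter thus had the same order of groups as both metallothionein genes, with no overlap between DBIC, Ctrl and the groups with hemin.

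MTF1, at chr1:37809567-37859620 on the minus strand (ENSG00000188786), had another order. Its level was 50.2, 47.2 and 47.8 CPM in Ctrl, 83.1, 79.9 and 83.5 with DBIC, 49.5, 51.7 and 51.0 with Hemin, and 55.3, 54.2 and 54.3 with DBIC+Hemin. The DBIC libraries stood apart, Hemin overlapped Ctrl, and the DBIC+Hemin libraries all lay just above both. In Ctrl the mean levels per length were 829 TPM for MT2A, 36.0 for MT1X, 12.6 for MTF1 and 12.1 for SLC30A1.

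**Figure D2:**
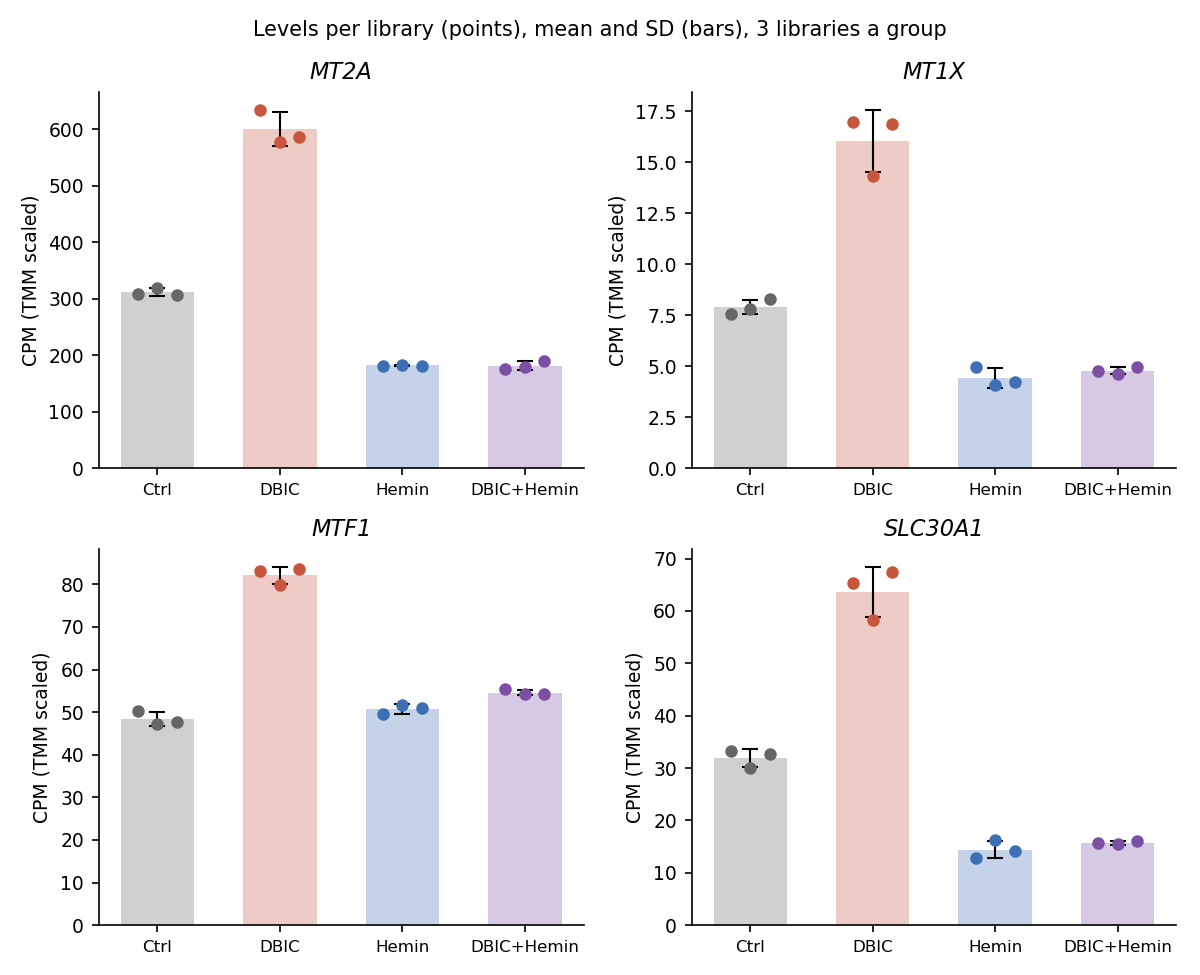
Level of each gene in CPM (y axis, from 0, scaled separately per gene) in the 4 groups (x axis); points are libraries, bars the mean and whiskers the SD of 3 libraries. MT2A, MT1X and SLC30A1 fall below Ctrl in both groups with hemin, while MTF1 with hemin stays near its Ctrl level of 48.4 CPM.

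The other metallothionein genes of the cluster were not detected at this depth. MT1E (chr16:56625475-56627112, plus strand, ENSG00000169715), MT1M (chr16:56632233-56633986, plus strand, ENSG00000205364), MT1F (chr16:56657694-56659305, plus strand, ENSG00000198417) and MT1G (chr16:56666731-56668065, minus strand, ENSG00000125144) lie between MT2A and MT1X and were listed at 0 in every library, as were 2731 of the 20263 genes (13.5%). MT1A, MT1B and MT1H from the same stretch, MT3 and MT4 on the other side of MT2A and MT1HL1 were also listed at 0, so 10 of the 12 metallothionein genes in the table had no count in any group, DBIC included. Metallothionein transcripts resemble each other, and reads that fit several genes can be lost or misassigned. Of all 50-base stretches of their GENCODE 29 transcripts, 92.9% in MT1E, 98.8% in MT1F, 83.5% in MT1G and 90.1% in MT1M occur in no other gene's transcript, against 97.0% in MT2A and 81.7% in MT1X. These shares pool every annotated transcript of a gene, up to 1573 bases long in MT1F and 1727 in MT1X. The share within the transcripts that a cell makes most was not computed. How the authors treated reads that map to several places is not given in the sources used here, and its part in the zeros was not tested.

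**Figure D3:**
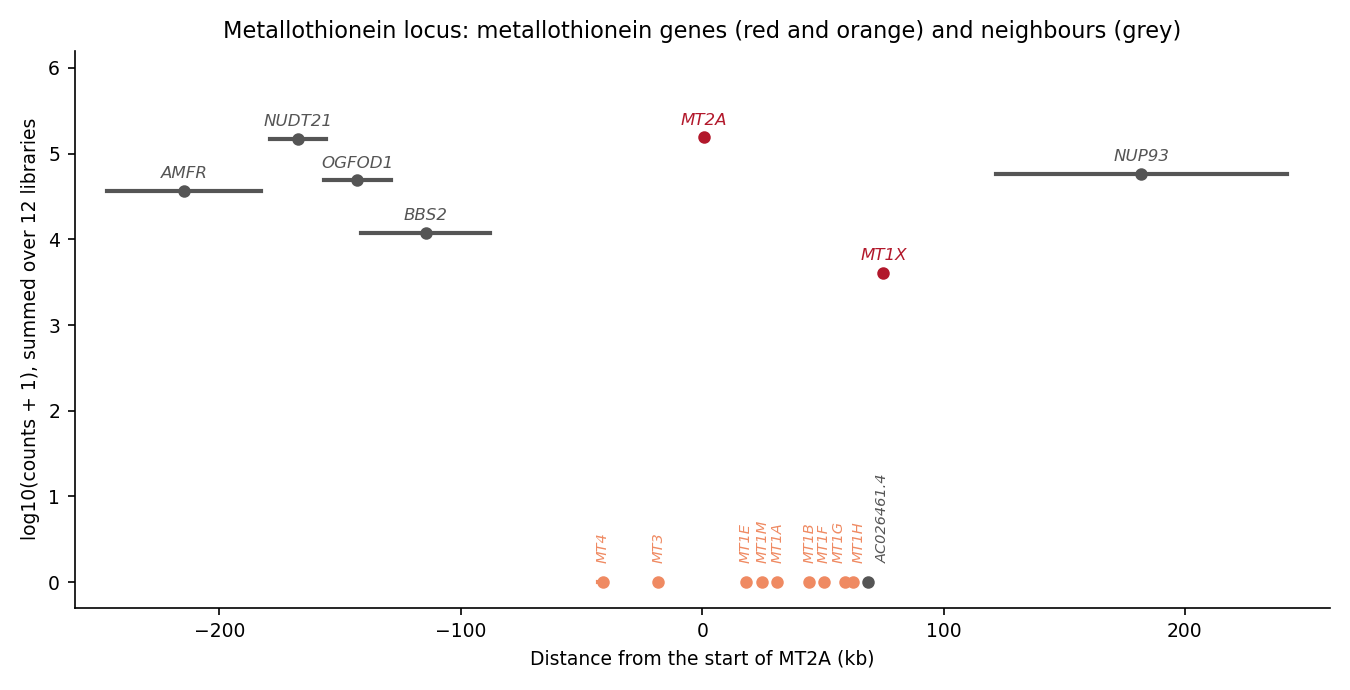
Counts summed over the 12 libraries (y axis, log10 of the count plus 1) for the genes of the locus, by distance from the start of MT2A in kb (x axis; lines span the gene). MT2A and MT1X, 74.2 kb apart, carry 154224 and 4019 counts, and the metallothionein genes around and between them carry 0.

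The nearest expressed genes on either side of the cluster did not move like MT2A and MT1X. BBS2, a component of a ciliary complex, whose gene lies 87.9 kb before MT2A, was at 27.1 ± 1.74 CPM in Ctrl and 22.1 ± 1.42 with DBIC (SD, n = 3), and fell by 0.29 on the log2 scale (SE 0.064, adjusted p = 0.00419). NUP93, a nuclear pore gene that starts 122 kb after the start of MT2A, was at 122 ± 1.87 and 118 ± 4.63 CPM, a log2 fold change of -0.050 (SE 0.045, adjusted p = 0.426). Neither gene was called between Hemin and Ctrl (adjusted p = 0.253 and 0.968). Further out, HERPUD1, which starts 324 kb after the start of MT2A, rose by 2.27 with DBIC (adjusted p = 5.52e-08). It fell by 1.78 in DBIC+Hemin against DBIC (adjusted p = 4.65e-07) and was not called between Hemin and Ctrl (adjusted p = 0.954). NUDT21, 156 kb before MT2A, fell by 0.19 with DBIC (adjusted p = 0.000478).

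DBIC against Ctrl asked how the compound alone acted. All 4 of the members tested rose, where 20.0% of the 14287 genes tested rose and 17.2% fell by edgeR's quasi-likelihood test at a Benjamini-Hochberg adjusted p under 0.05. MT2A rose by a log2 fold change of 0.94 (SE 0.040, adjusted p = 1.71e-08), 1.92-fold. MT1X rose by 1.02 (SE 0.094, adjusted p = 8.73e-06) and SLC30A1 by 0.997 (SE 0.082, adjusted p = 3.52e-06), so storage and export transcripts moved by about the same factor. MTF1 rose by 0.76 (SE 0.036, adjusted p = 4.53e-08). The 95% confidence intervals of MT2A, 0.86 to 1.03, MT1X, 0.81 to 1.23, and SLC30A1, 0.82 to 1.18, overlap each other. In none of the 4 genes did the DBIC and Ctrl libraries overlap, but genes without overlap were not counted over all genes tested. The median log2 fold change was 0.97 over the 4 members and -0.0082 over all genes tested, and 3.91% to 6.30% of all genes tested rose at least as far as a member did.

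Hemin against Ctrl asked what heme did without the compound. Of the 4 members tested, 3 fell, where only 2.59% of genes tested fell and 1.47% rose. SLC30A1 fell by 1.15 on the log2 scale (SE 0.084, adjusted p = 4.09e-05), 2.21-fold, and 0.525% of genes tested fell as far. MT2A fell by 0.77 (SE 0.040, adjusted p = 3.81e-06) and MT1X by 0.83 (SE 0.097, adjusted p = 0.000844). The libraries of the 2 groups did not overlap in these 3 genes, again without a count over all genes tested. MTF1 was not called, with a log2 fold change of 0.069 (95% interval -0.011 to 0.15, adjusted p = 0.389), so its transcript level stayed within the spread while those of 3 genes it regulates in other settings fell.

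DBIC+Hemin against DBIC asked what hemin changed in cells that received the compound. All 4 members fell, where 18.4% of genes tested fell and 13.5% rose. SLC30A1 fell by 2.02 (SE 0.085, adjusted p = 2.67e-08), 4.04-fold. MT1X fell by 1.75 (SE 0.097, adjusted p = 2.43e-07) and MT2A by 1.73 (SE 0.041, adjusted p = 9.79e-10). MTF1 fell less, by 0.59 (SE 0.036, adjusted p = 5.27e-07), and its interval, -0.67 to -0.51, lies apart from those of the other 3. No library of one group overlapped the other in any of the 4 genes, and the share of all genes tested that separated so was not counted. The median over the members was -1.74 against -0.010 over all genes tested.

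DBIC+Hemin against Hemin gave the response to DBIC when hemin was present. None of the 4 members was called by edgeR (3.71% of genes tested rose and 3.09% fell), and 1 had an unadjusted p under 0.05. DESeq2 called 0 of the 4, beside 7.35% of the 17532 genes it fitted. MT2A differed by -0.0072 with a 95% interval of -0.095 to 0.080 (adjusted p = 0.952). The intervals of MT1X, -0.11 to 0.32, and SLC30A1, -0.057 to 0.31, are wider. MTF1 was the gene with the unadjusted p of 0.0139 (adjusted p = 0.119), and all 3 of its DBIC+Hemin libraries lay above all Hemin libraries, by 0.11 on the log2 scale. All 4 intervals exclude the size of the DBIC effect without hemin.

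DBIC+Hemin against Ctrl called all 4 members, with 5.66% of genes tested higher and 6.74% lower. MT2A fell by 0.78 (SE 0.040, adjusted p = 1.03e-06), MT1X by 0.72 (SE 0.096, adjusted p = 0.000632) and SLC30A1 by 1.02 (SE 0.083, adjusted p = 1.84e-05). MTF1 rose by 0.17 (SE 0.036, adjusted p = 0.00885), but its adjusted p was 0.0504 when only the 2 groups compared were fitted. Thus 3 of the members lay below Ctrl with the combination and MTF1 slightly above. The comparisons share groups of libraries, so their values are not independent of each other.

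The difference itself, the DBIC effect with hemin minus that without it, was tested as an interaction. It was negative for all 4 members, where 10.2% of genes tested had a negative and 6.40% a positive interaction. The term was -0.95 for MT2A (SE 0.056, adjusted p = 1.16e-06), -0.91 for MT1X (SE 0.14, adjusted p = 0.000885), -0.87 for SLC30A1 (SE 0.12, adjusted p = 0.000452) and -0.66 for MTF1 (SE 0.051, adjusted p = 9.16e-06). For MT2A the term equals in size the whole DBIC effect of 0.94 within its error, and for MTF1 it was -0.66 beside a DBIC effect of 0.76.

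**Figure D4:**
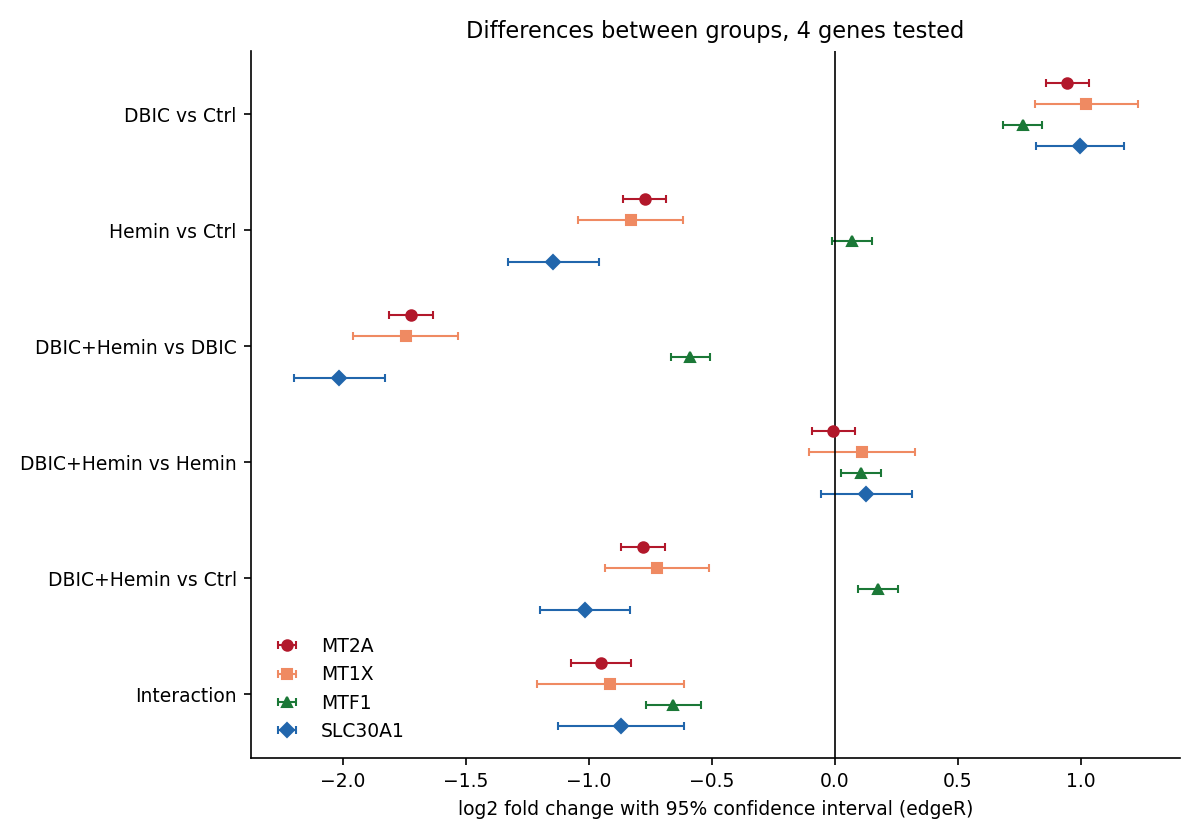
Log2 fold changes (x axis) with 95% confidence intervals from edgeR for the 4 genes tested in each comparison (y axis), with the interaction in the lowest row. The intervals of MT2A, MT1X and SLC30A1 overlap each other in the comparison of DBIC with Ctrl, and that of MTF1 stands apart from the other 3 in Hemin against Ctrl, DBIC+Hemin against DBIC and DBIC+Hemin against Ctrl, but overlaps those of MT1X and SLC30A1 in the interaction.

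Over the 12 libraries, log2 CPM of MT2A correlated with that of MT1X at a Pearson r of 0.991 and with that of SLC30A1 at 0.990, and MT1X and SLC30A1 correlated at 0.982. MTF1 correlated with the other 3 at 0.763 to 0.807. These values describe libraries that share 4 treatments, and carry no test. Among 10674 genes at a mean of at least 5 CPM, the genes most like MT2A were RAPGEF2 (0.989), LPIN2 (0.984) and ZBTB39 (0.983), and those most opposite were SMYD5 (-0.980) and CTNNBIP1 (-0.979). MT1X was most like ARHGEF40 (0.988), ZBTB39 (0.987) and LPIN2 (0.984), and SLC30A1 most like LPIN2 (0.986), SHISA2 (0.981) and SNTB2 (0.980). CTNNBIP1 and SMYD5 were among the 3 most opposite genes for MT1X (-0.982 and -0.982) and SLC30A1 (-0.981 and -0.981) as well, joined by DTD1 (-0.977) for MT1X. MTF1 shared none of these, and was most like ZC3H12A (0.997), ZCCHC8 (0.996) and OGT (0.996) and most opposite to NOTCH2 (-0.992), CHST14 (-0.992) and LAMB1 (-0.991). LPIN2, which is among the 3 most alike for 3 members, moved over a narrower range than they did, from 47.4 CPM with Hemin to 75.9 with DBIC.

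Among the other zinc exporters of the SLC30 family and TMEM163, 7 of 10 genes were tested. With DBIC 2 of the 7 rose and 0 fell, a count near that of all genes tested (20.0% higher, 17.2% lower). SLC30A7, which loads zinc into the secretory pathway, rose by 0.47 (SE 0.045, adjusted p = 1.24e-05), from 53.7, 50.7 and 52.9 CPM in Ctrl to 73.8, 69.0 and 75.1, and SLC30A5, of the same pathway, rose by 0.17 (adjusted p = 0.0258). In DBIC+Hemin, SLC30A7 was at 56.5, 56.5 and 52.2 CPM, 0.40 lower on the log2 scale than with DBIC (adjusted p = 6.13e-05), and its interaction was -0.41 (adjusted p = 0.00135). SLC30A9 was the other exporter called in DBIC+Hemin against DBIC and rose, by 0.16 (adjusted p = 0.00605), where 13.5% of all genes rose and 18.4% fell. Hemin alone left SLC30A7 at 53.5, 52.4 and 52.1 CPM, within the range of Ctrl. Between Hemin and Ctrl edgeR called 0 of the 7 exporters, of which 0 had an unadjusted p under 0.05. DESeq2 called 0 of the exporters, beside 5.18% of the 17532 genes it fitted. With 1.47% of all genes higher and 2.59% lower there, a count of 0 in 7 says nothing particular about them. The median over the 7 was 0.057 with DBIC and 0.0066 with Hemin.

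Of 14 zinc importers of the SLC39 (ZIP) family, 12 were tested. With DBIC 1 rose and 3 fell, again near the shares over all genes (20.0% and 17.2%), and with Hemin 2 rose and 0 fell, where 1.47% of all genes rose and 2.59% fell. SLC39A10, a plasma membrane importer whose gene MTF1 represses when zinc is high, ran opposite to SLC30A1. It was at 24.1, 20.8 and 22.2 CPM in Ctrl, 17.8, 15.5 and 16.7 with DBIC, 32.8, 36.8 and 38.4 with Hemin, and 26.1, 39.0 and 35.1 with DBIC+Hemin. It fell by 0.43 with DBIC (SE 0.13, adjusted p = 0.0235), rose by 0.69 with Hemin (SE 0.13, adjusted p = 0.0133) and was 1.004 higher on the log2 scale in DBIC+Hemin than in DBIC (SE 0.13, adjusted p = 0.000164). Libraries did not overlap in these 3 comparisons, although the first DBIC+Hemin library was lower than the other 2 of its group. The interaction of SLC39A10 was 0.32 (SE 0.18, adjusted p = 0.285) and was not called, unlike that of SLC30A1. SLC39A7, which releases zinc from the endoplasmic reticulum, rose with DBIC by 0.24 (adjusted p = 0.00388), and SLC39A6 and SLC39A3 each fell by 0.17 (adjusted p = 0.00132 and 0.0335). SLC39A11 was the other importer that rose with Hemin, by 0.30 (adjusted p = 0.0336). In DBIC+Hemin against DBIC 3 of the 12 importers rose and 1 fell, where 13.5% and 18.4% of all genes tested did. Interactions were called by edgeR for SLC39A6 (0.21, adjusted p = 0.00624) and SLC39A11 (-0.47, adjusted p = 0.00705). Over all genes tested, 6.40% had a positive and 10.2% a negative interaction. The median over the 12 was 0.057 with DBIC and 0.029 with Hemin.

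**Figure D5:**
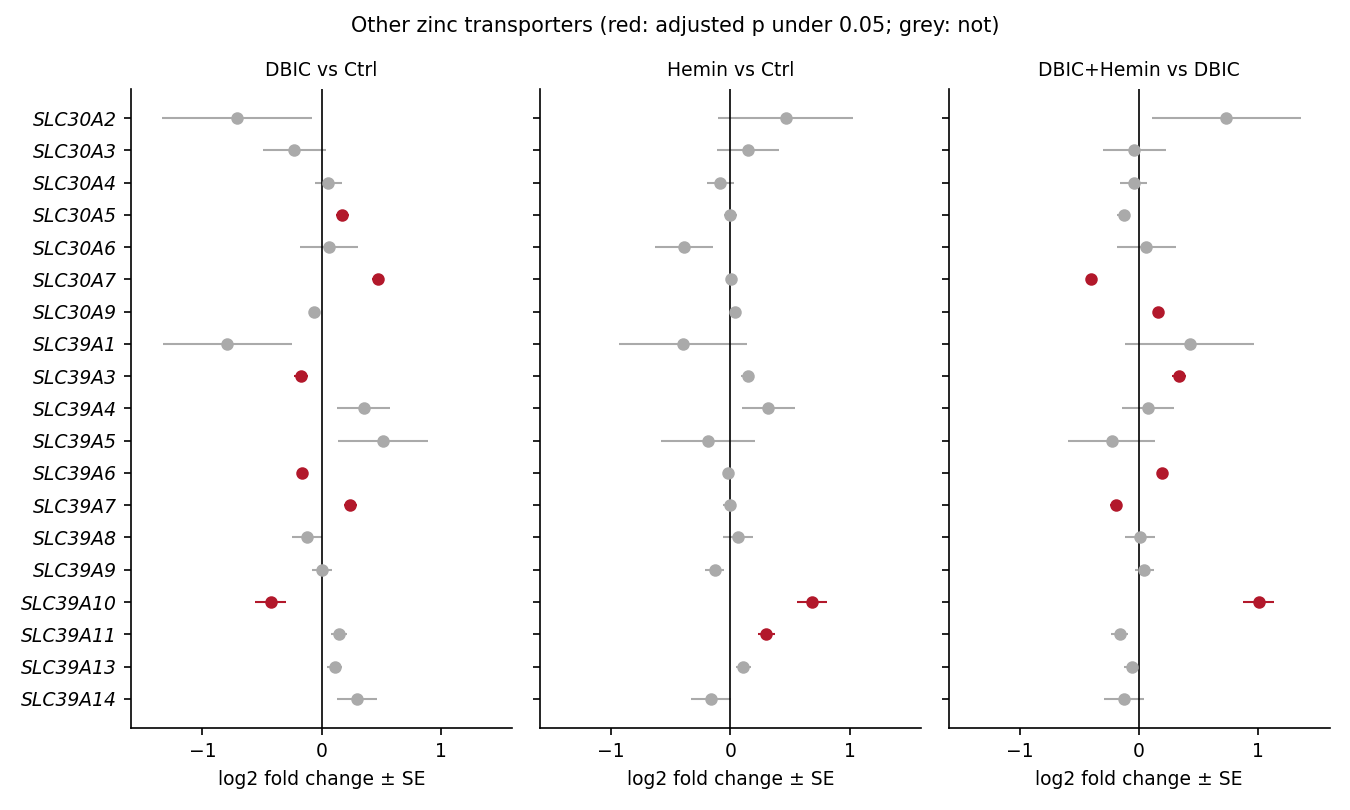
Log2 fold changes with SE (x axis) of the 7 exporters and 12 importers tested besides SLC30A1 (y axis), in 3 comparisons; red marks an adjusted p under 0.05. SLC30A7 and SLC39A10 carry the largest red values, SLC39A10 at -0.43, 0.69 and 1.004.

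A list of 8 transcription regulators held MTF1, MTF2, SP1, SP3, ZNF658, ZNF143, KDM6B and HIF1A. With DBIC 6 of the 8 rose and 0 fell, where 20.0% of all genes tested rose and 17.2% fell. MTF1 itself is counted among the 6, and whether zinc regulates the others here was not tested. DESeq2 called 5 of the 8, beside 31.0% of the 17532 genes it fitted. The list was written with earlier results of these data known, so its count is a description and no independent evidence. KDM6B, a histone demethylase, went from 55.0, 43.6 and 59.6 CPM in Ctrl to 295, 242 and 269 with DBIC, a rise of 2.35 (SE 0.19, adjusted p = 1.26e-05). ZNF658, a zinc finger repressor tied to the zinc transcriptional regulatory element, rose by 0.72 (adjusted p = 0.0176) from 6.30, 6.57 and 3.35 CPM to 8.32, 9.20 and 9.17, with 1 Ctrl library well below the other 2. MTF2, a Polycomb-associated protein, rose by 0.35 (adjusted p = 0.00131). In DBIC+Hemin against DBIC 5 of the 8 fell and 0 rose (18.4% and 13.5% of all genes tested), and KDM6B fell by 1.94 (adjusted p = 6.03e-05). Between Hemin and Ctrl edgeR called 0 of the 8 and 0 had an unadjusted p under 0.05, beside 1.47% of all genes higher and 2.59% lower. DESeq2 called 0 of the 8 there, beside 5.18% of the genes it fitted.

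Among 12 genes of the metal and glutathione stress list, 4 rose and 1 fell with DBIC (20.0% and 17.2% of all genes tested), and 3 rose and 0 fell with Hemin (1.47% and 2.59%). In DBIC+Hemin against DBIC, where all 4 members fell, 8 of the 12 rose and 1 fell (13.5% and 18.4% of all genes tested). Against Hemin the combination had 5 higher and 0 lower (3.71% and 3.09%), and against Ctrl 7 higher and 0 lower (5.66% and 6.74%). The chaperone gene DNAJB1 rose with DBIC by 0.98 (SE 0.075, adjusted p = 3.16e-06), from 208, 227 and 212 to 451, 374 and 452 CPM, while GCLM, which encodes a subunit of the glutathione-forming ligase, was at 59.4, 50.6 and 49.8 CPM in Ctrl and 54.8, 57.0 and 58.0 with DBIC. With Hemin GCLM rose by 0.62 (adjusted p = 0.00253) and FTH1, the heavy chain of the iron store ferritin, by 0.47 (adjusted p = 0.000452), and FTH1 had also risen with DBIC, by 0.29 (adjusted p = 0.000804). HSPA1A and HSPA1B rose by 0.49 and 0.48 with DBIC, but these near-identical copies can share reads. Both also rose in DBIC+Hemin against Hemin, by 0.45 and 0.43 (adjusted p = 0.0131 and 0.0110). DNAJB1 was not called there (-0.021, adjusted p = 0.919). Of 13 copper handling genes tested, 1 rose and 3 fell with DBIC, where 20.0% and 17.2% of all genes tested did. The counts with DBIC thus lie near or below the background. With Hemin 1 rose and 0 fell (1.47% and 2.59%), and in DBIC+Hemin against DBIC 5 rose and 0 fell (13.5% and 18.4%). The copper importer gene SLC31A1 rose with Hemin by 0.24 (adjusted p = 0.0216). With DBIC, SCO2 rose by 0.94 (adjusted p = 0.0161), from a mean of 0.721 to 1.39 CPM. The copper chaperone ATOX1, the copper-zinc enzyme SOD1 and MT-CO2 fell with DBIC by 0.18, 0.19 and 0.26 (adjusted p = 0.00271, 0.000566 and 0.0315).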

How the data were processed

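The authors deposited, for 12 libraries, a count of reads per gene without normalization, a TPM value and an FPKM value. The submitters' processing notes name Trim Galore, Subread, featureCounts and hg38. Aligner settings, strand and the handling of multiply mapped reads are not given in the sources used here. Differences were tested on the counts by edgeR 4.0.16 under R 4.3.3 (filterByExpr, TMM factors, robust quasi-likelihood fit of 1 mean per group over all libraries, 8 residual degrees of freedom). P-values were adjusted over the 14287 genes tested, and SE was derived from the F statistic. CPM use TMM-scaled totals, correlations log2 CPM with a prior count of 2. TPM served for levels per length. Alternatives were DESeq2 1.42.0, other scalings and filters, fits of the groups compared, the replicate block and leaving out each library. The steps were tested on simulated data. Named genes were the 8 members, list genes called, HMOX1 and, per tested member, the 3 genes most and least correlated, of which 1 is not reported here. Members and lists were chosen with earlier results of these data known. Motifs were counted in RefSeq promoters.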

Additional observations from a re-analysis of the deposited data

Results flagged for a closer look

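The effect of DBIC differed between cells with and without hemin for all 4 members tested, by the interaction term of edgeR's fit (3 libraries a group), where 10.2% of all genes tested had a negative and 6.40% a positive interaction. The difference in log2 fold change was -0.95 for MT2A (adjusted p = 1.16e-06), -0.91 for MT1X (adjusted p = 0.000885), -0.66 for MTF1 (adjusted p = 9.16e-06) and -0.87 for SLC30A1 (adjusted p = 0.000452). Hemin alone had already placed MT2A, MT1X and SLC30A1 below Ctrl, whereas MTF1 was not called in that comparison.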

How the results depend on the processing

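Of 452 values recomputed for the 4 members under the alternatives, 449 kept their direction and their side of the threshold. MT2A in DBIC+Hemin against Hemin turned positive without DBIC+Hemin replicate 1 (0.018) and without replicate 2 (0.0021), within a leave-one-out range of -0.042 to 0.018, and was called in neither. MTF1 in DBIC+Hemin against Ctrl lost its call when only the groups compared were fitted (0.17, adjusted p = 0.0504), which left 3 members called there. With the replicate block the members called were 4 in DBIC against Ctrl, 3 in Hemin against Ctrl, 4 in DBIC+Hemin against DBIC, 0 in DBIC+Hemin against Hemin, 4 in DBIC+Hemin against Ctrl and 4 for the interaction, as without it, where the block called 35.6%, 2.86%, 29.8%, 5.43%, 10.5% and 14.5% of all genes tested. Same-numbered libraries correlated in their deviations from group means by -0.046 to 0.081 (18 pairs) and others by -0.070 to 0.076 (36 pairs). With correlations this low and no label that ties a number to a culture, the numbers were not taken to pair libraries, although 8 of 12 correlated best with their own number, a hint of pairing from the data and not from the design. Over all genes, the number called in Hemin against Ctrl was 580, but 909 by DESeq2 and 272 to 373 without a Ctrl or Hemin library, and in DBIC+Hemin against Hemin 971, but 569 with only those groups and 612 to 625 without Hemin replicate 1, Hemin replicate 3 or DBIC+Hemin replicate 1. Upper-quartile scaling changed the share of higher among called genes from 53.8% to 40.0% in DBIC against Ctrl, from 42.4% to 59.2% in DBIC+Hemin against DBIC and from 38.5% to 55.4% for the interaction, and totals alone changed it from 54.6% to 42.3% in DBIC+Hemin against Hemin and from 45.6% to 34.4% in DBIC+Hemin against Ctrl. The cause was not tested. No scaling turned a called member. Without a low-count filter, 1 rather than 2 copper genes were called in DBIC+Hemin against Ctrl. The share of all genes called there was 7.60% without the filter and 12.4% with it. The zeros of MT1E, MT1F, MT1G and MT1M allow levels of up to 0.0784 CPM at this depth, and the part of shared reads in them was not tested.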
